A study of Saccharomyces cerevisiae with 12 samples.

Results

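The proteins of the cytosolic ribosome of Saccharomyces cerevisiae were followed through 75 of their genes, each read by a probe set that names that gene alone. Members were the genes whose symbol has the form RPL or RPS, a number and, where the gene is duplicated, a letter A or B. Such symbols stood on 99 of the 9275 probe sets tested, and the brightest probe set of each gene was used. In all, 5656 genes had such a probe set. The 75 genes comprised 42 of the large subunit and 33 of the small subunit. They encoded 46 proteins, and 29 of these were read from both the A and the B gene. The other 17 members carry no letter. The rule used names and brightness and no difference between groups. Another 59 probe sets name both paralogues of a protein at once, and they are described apart from the members.

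RNA came from 12 cultures of strain S288C, with 1 Affymetrix array per culture and 3 arrays per group. The groups received tomatidine at 0.625 ppm, tomatine at 13.9 ppm, fenpropimorph at 0.313 ppm, or the carrier solvent dimethylformamide alone as control, so that all cultures held the solvent. No genetic change was made in any group. Growth began at an OD600 of 0.1 and 30 °C, the addition followed after 1 h, and RNA was taken after a further 5 h, on 3 days with 1 culture per group each day. Tomatine 2, for example, stands for the tomatine array of day 2. Compounds and doses are those of the sample titles. A second label field gives tomatidine for all 12 samples, the solvent controls among them, and was not used. Tomatine is a steroidal glycoalkaloid of tomato, tomatidine is the same steroid without the sugars, and fenpropimorph is a morpholine fungicide that blocks sterol reduction and isomerisation. S288C is a strain of the alpha mating type, and alpha-specific genes gave signals of 373 to 6122, whereas a-specific genes gave 6.23 to 110.4. The top of that range comes from MFA2 (85.45 to 110.4) and MFA1 (53.4 to 66.56), and STE2, BAR1 and STE6 gave at most 16.01. BAR1 was the 1 of these 5 called with fenpropimorph (0.39, limma, adjusted p = 0.033), against 13.4% of all probe sets called higher. The alpha-specific genes were themselves lower with fenpropimorph (4 of 4 called, limma, median log2 fold change -1.55) and in part with tomatidine (2 of 4 called, median -0.48), and 0 of 4 were called with tomatine (limma, 0 at an unadjusted p under 0.05). Their part in the results below was not tested.

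A ribosome holds 1 copy of nearly every ribosomal protein, and yeast makes these proteins in step with the ribosomal RNA. Rap1, Fhl1 and Ifh1 bind most ribosomal protein promoters, and the genes are known to be transcribed according to nutrient supply and growth. Most of the proteins are encoded by a pair of paralogues, whose products are nearly identical and whose transcripts can be controlled apart. Several of the proteins, among them Rpl30, Rps14, Rpl22 and Rps28, limit the splicing or the lifetime of their own transcripts.

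The arrays held these transcripts at high signal. The mean log2 signal of the members was 9.09 for RPL22B at the low end and 14.27 for RPS26A at the high end, with a median of 11.84, against a median of 6.29 over all probe sets. Most probe sets were thus dimmer than every member, and the shares over all probe sets given below come from that mix. Shares among probe sets as bright as the members were not counted. Signals of different probe sets do not rank transcripts, and every difference below is of 1 probe set between arrays. The array medians over all probe sets were 77.2 to 78.6. Precision is limited by the 3 arrays per group. The values are relative to the rest of the RNA on the array, so that fewer ribosomal protein transcripts per cell and more of all other RNA per cell cannot be told apart. Where nothing else is said, ± gives a standard error with n = 3 arrays in each group. A gene is said to have risen or fallen at an adjusted p under 0.05 (limma, Benjamini-Hochberg over the 9275 probe sets).

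As a set, the ribosomal protein transcripts sat lower with fenpropimorph and higher with tomatine, by small amounts. Each gene was expressed as its deviation from its own mean over the 12 arrays on the log2 scale, and the median of the members was taken on each array. It was 0.04, -0.003 and 0.05 on tomatidine 1 to 3. On tomatine 1 to 3 it was 0.11, 0.07 and 0.09. On fenpropimorph 1 to 3 it was -0.12, -0.12 and -0.08, and on control 1 to 3 it was -0.02, 0.02 and 0.003. All 3 fenpropimorph arrays lay below every other array, and all 3 tomatine arrays lay above every other array, whereas the tomatidine and control arrays overlapped. The members took 11.4% ± 0.137 of the summed signal with tomatidine, 11.7% ± 0.145 with tomatine, 10.4% ± 0.0801 with fenpropimorph and 11.2% ± 0.132 in control (SD, n = 3 each).

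**Figure D1:**
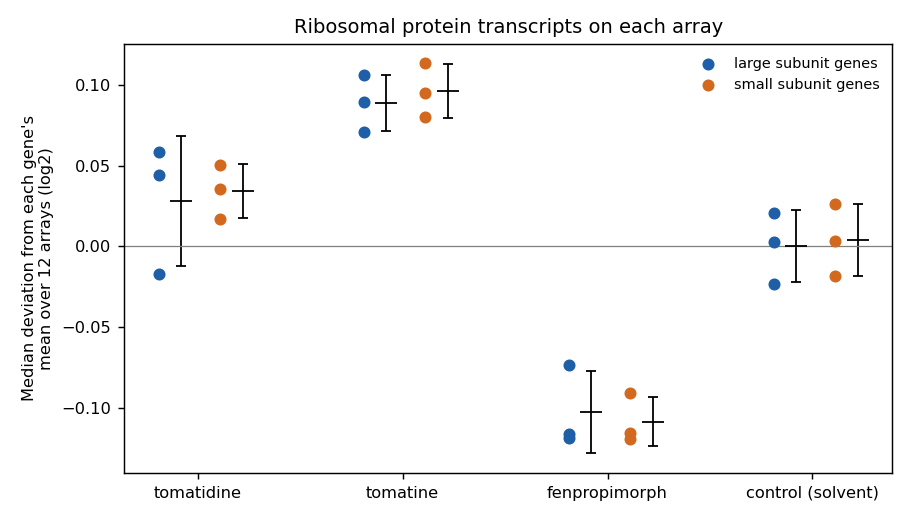
Median deviation of the ribosomal protein genes from their own 12-array mean (y axis, log2) on each array, by group (x axis), for the 42 large subunit genes (blue) and the 33 small subunit genes (orange). Each point is 1 array, and black bars are the mean and SD of 3 arrays. The fenpropimorph points lie lowest, the tomatine points highest, and the subunits lie side by side in every group.

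With fenpropimorph, 11 of the 75 genes fell and 0 rose (limma, Benjamini-Hochberg; 18 at an unadjusted p under 0.05 in either direction). That is 14.7% of the members, whereas 16.9% of all probe sets were called lower and 13.4% called higher, so the share of members called lower was near the background. The median log2 fold change of the members was -0.11, a level 7.50% lower than in control, against -0.07 over all probe sets. It was -0.09, -0.14 and -0.09 on days 1 to 3. Values lay below 0 for 70 of the 75 genes, or 93.3%, against 63.4% of all probe sets. For 40 members, or 53.3%, all 3 fenpropimorph arrays lay below all 3 control arrays, and this held for 26.9% of all probe sets. For 0 members did the fenpropimorph arrays lie wholly above, against 17.9% of all probe sets. The shifts of most members were thus small, common in direction and short of the threshold one by one.

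**Figure D2:**
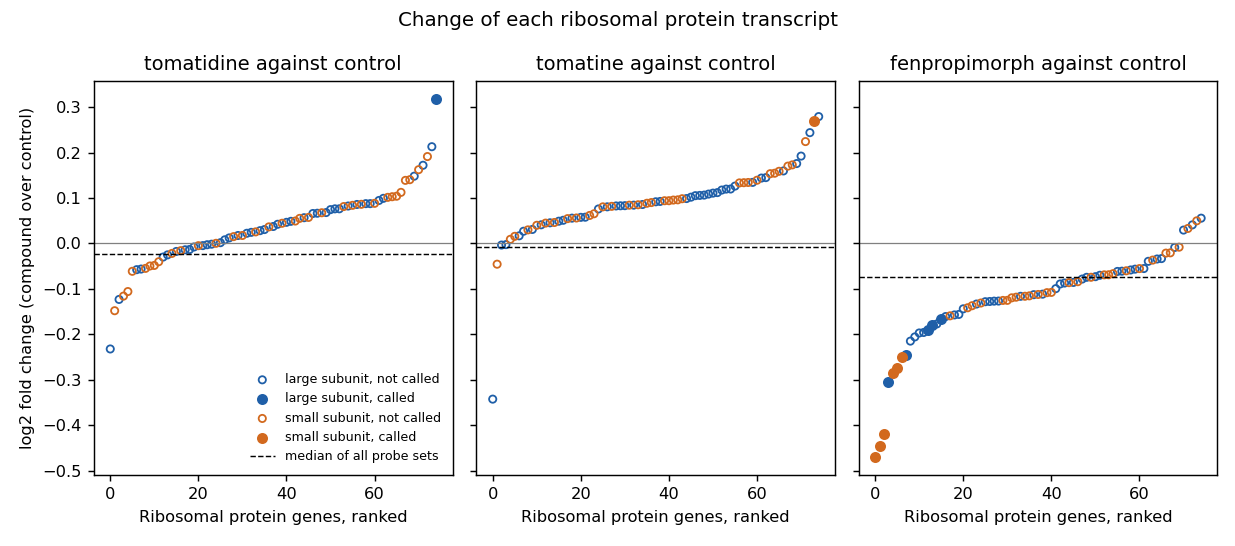
Log2 fold change against control (y axis) of the 75 ribosomal protein genes, ranked within each panel (x axis), for tomatidine, tomatine and fenpropimorph. Filled points are called (limma, adjusted p under 0.05), open points are not, colours mark the subunit, and the dashed line is the median of all probe sets. With fenpropimorph 70 of 75 points lie below 0 and 11 are filled, and with tomatine 71 of 75 lie above 0 and 1 is filled.

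Among the small subunit genes, 6 of 33 fell with fenpropimorph, or 18.2%, against 16.9% of all probe sets called lower. RPS26B (YER131W) encodes a copy of Rps26, a protein at the site where the messenger RNA leaves the small subunit. Its signal was 1013, 885 and 844 on fenpropimorph 1 to 3, against 1129, 1314 and 1353 on control 1 to 3. The groups did not overlap, and both tomato steroids stood with the control or above it, at 1248, 1265 and 1272 with tomatidine and 1352, 1331 and 1590 with tomatine. RPS26B was 27.8% lower with fenpropimorph, a log2 fold change of -0.47 ± 0.0958 (95% interval -0.68 to -0.26, limma, adjusted p = 0.0029).

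RPS28B (YLR264W) encodes a copy of Rps28, which is known to shorten the life of the RPS28B transcript itself. It gave 4465, 4554 and 4340 on the fenpropimorph arrays, against 5795, 6209 and 5865 on the control arrays. The 3 fenpropimorph arrays lay close together and below every other array. The difference was -0.42 ± 0.0786, or 25.2% lower, with an adjusted p of 0.00169 (limma).

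RPS27A (YKL156W) encodes a zinc-binding protein of the small subunit. It gave 1744, 2393 and 2482 with fenpropimorph, against 3009, 2946 and 2958 in control. The control arrays lay within a narrow band, and fenpropimorph 1 stood apart from the other fenpropimorph arrays at the low end. The difference was -0.45 ± 0.115, or 26.6% lower (limma, adjusted p = 0.0119). Fenpropimorph 1 was also low for a large subunit gene, RPL37A, with 6562, 8854 and 9585 with fenpropimorph against 9460, 9700 and 9313 in control, and there the groups overlapped (limma, adjusted p = 0.202).

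RPS0A, RPS1A and RPS7B fell by smaller amounts. Rps0 and Rps1 belong to the body and platform of the small subunit, and Rps7 is needed to mature the small ribosomal RNA. RPS0A (YGR214W) gave 3246, 3061 and 2924 with fenpropimorph, against 3737, 3729 and 3777 in control (log2 fold change -0.29 ± 0.0639, limma, adjusted p = 0.00521). RPS1A (YLR441C) gave 4296, 4342 and 4414, against 5514, 5004 and 5286 in control (-0.28 ± 0.0707, limma, adjusted p = 0.0116). In both genes every fenpropimorph array lay below every control array. RPS7B (YNL096C) gave 2827, 2719 and 2756, against 3348, 3350 and 3184 in control, again with no overlap (-0.25 ± 0.0594, limma, adjusted p = 0.0072).

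Among the large subunit genes, 5 of 42 fell with fenpropimorph, or 11.9%, against 16.9% of all probe sets called lower. RPL22B (YFL034C-A) encodes the minor form of Rpl22, a protein on the outside of the large subunit that holds back splicing of the RPL22B transcript. It gave 418, 485 and 434 with fenpropimorph, against 559, 573 and 519 in control. The groups did not overlap, and the log2 fold change was -0.31 ± 0.0804 (limma, adjusted p = 0.0131). Its paralogue RPL22A (YLR061W) gave 7095, 6593 and 6729 with fenpropimorph and 7616, 7501 and 8000 in control, a change of -0.18 ± 0.0603 (limma, adjusted p = 0.0416).

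RPL13A, RPL36A and RPL14B also fell, and all 3 encode proteins of the large subunit. RPL13A (YDL082W) gave 3540, 3527 and 3250 with fenpropimorph, against 4068, 4247 and 3921 in control (-0.25 ± 0.072, limma, adjusted p = 0.0219). RPL36A (YMR194W) gave 8319, 7527 and 7454, against 9192, 9061 and 8320 in control (-0.19 ± 0.0642, limma, adjusted p = 0.0423). RPL14B (YHL001W) gave 3348, 3128 and 3271, against 3657, 3708 and 3564 in control (-0.17 ± 0.056, limma, adjusted p = 0.0426). For RPL36A the highest fenpropimorph array lay just under the lowest control array, and for RPL13A and RPL14B the groups were clearly apart.

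The calls of RPS26B, RPS27A, RPS28B, RPL22B, RPS0A, RPS1A and RPS7B held whichever of the 6 arrays was left out, with a highest adjusted p of 0.0486. The other 4 did not. RPL13A missed the threshold without control 1, control 2 or fenpropimorph 3. RPL36A missed it without control 1, control 2, fenpropimorph 2 or fenpropimorph 3, and RPL22A and RPL14B missed it when any array other than fenpropimorph 1 was left out. With day as a block 8 of the 75 members were called lower, all among these 11, whereas 16.5% of all probe sets were, and RPL36A, RPL22A and RPL14B then had adjusted p = 0.0529, 0.0522 and 0.0617 (limma). The count was 7 without control 1.

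**Figure D3:**
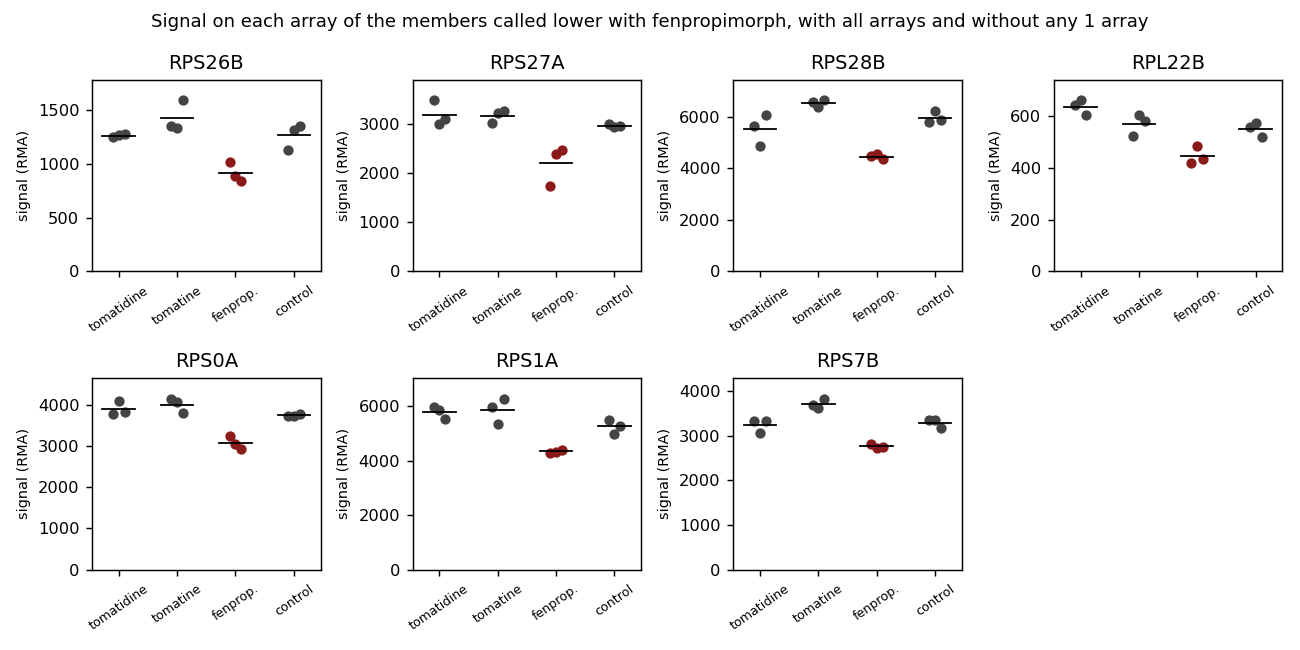
Signal (y axis, RMA units, linear and starting at 0) on each of the 12 arrays for the 7 genes called lower with fenpropimorph with all arrays and without any 1 array. Points are days 1 to 3 within a group, lines are group means, and fenpropimorph is in red. In all 7 genes the 3 fenpropimorph points lie below the 3 control points.

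At the other end, no member rose with fenpropimorph. The highest values were 0.06 for RPL10, 0.05 for RPS31 and 0.04 for RPL39. RPL10 encodes 1 of the last proteins to join the large subunit and gave 6398, 6531 and 7127 with fenpropimorph, against 6425, 6568 and 6287 in control. RPS31 encodes a fusion of ubiquitin and a small subunit protein and gave 4726, 4733 and 4707, against 4430, 4788 and 4477 in control. The groups overlapped for both, and none of the 17 members without a letter was called with fenpropimorph (limma, 1 at an unadjusted p under 0.05). Over all probe sets 16.9% were called lower. The median of these 17 was -0.06, no lower than the -0.07 of all probe sets. It was -0.13 for the 29 A genes, of which 6 fell, and -0.12 for the 29 B genes, of which 5 fell. The difference between lettered and unlettered genes was not tested.

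With tomatine, 1 of the 75 genes rose and 0 fell (limma, Benjamini-Hochberg; 11 at an unadjusted p under 0.05 in either direction). This was 1.33% of members higher, against 2.59% of all probe sets called higher and 1.77% called lower. The median of the members was nevertheless 0.09, with 0.12, 0.06 and 0.08 on days 1 to 3, whereas that of all probe sets was -0.01. Values lay above 0 for 71 of 75 genes, or 94.7%, against 47.7% of all probe sets. The tomatine arrays lay wholly above the control arrays for 40 members, or 53.3%, against 14.1% of all probe sets, and wholly below for 1 member, RPL15B, against 10.5%. Dimmer members had the higher values, with medians of 0.11 for the 38 dimmer and 0.08 for the 37 brighter members and a Spearman rho of -0.424 across the 75 genes, which share the same arrays and are not independent. For fenpropimorph this rho was -0.0413.

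The gene that rose was RPS14B (YJL191W), which encodes a copy of a platform protein of the small subunit and whose splicing is held back by Rps14. It gave 1371, 1177 and 1295 with tomatine, against 1029, 1125 and 1031 in control. The groups did not overlap, and the log2 fold change was 0.27 ± 0.0671, or 20.5% higher (limma, adjusted p = 0.0456). With day as a block its adjusted p was 0.0708, and the call was lost when any array other than tomatine 2 was left out.

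RPL36B and RPL33B had values near that of RPS14B with tomatine and missed the threshold. RPL36B gave 1299, 1157 and 1425, against 1072, 1003 and 1114 in control (0.28 ± 0.0812, limma, adjusted p = 0.0784, and 0.0368 with day as a block). RPL33B gave 1902, 1981 and 1929, against 1534, 1730 and 1649 in control (0.24 ± 0.0666, limma, adjusted p = 0.0615). In both large subunit genes the tomatine arrays lay above the control arrays. RPL15B, which encodes a copy of a core protein of the large subunit, ran the other way. It gave 727, 614 and 732 with tomatine, against 874, 877 and 869 in control, a log2 fold change of -0.34 ± 0.0951 (limma, adjusted p = 0.0653), and the 3 tomatine arrays lay below the 3 control arrays.

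With tomatidine, 1 of the 75 genes rose and 0 fell (limma, Benjamini-Hochberg; 6 at an unadjusted p under 0.05 in either direction). All probe sets were called higher at 2.53% and lower at 1.91%. The median of the members was 0.04, with 0.08, -0.02 and 0.03 on days 1 to 3, against -0.02 over all probe sets. Values lay above 0 for 51 of 75 genes, or 68%, against 43.8% of all probe sets. The arrays of the groups lay apart upwards for 14 members, or 18.7%, against 10.7% of all probe sets, and downwards for 1 member, RPL5, against 13.3%. Tomatidine 2 was the lowest array of its group for 45 of the 75 members and the lowest of all 12 arrays for 11.

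RPL7B (YPL198W) rose with tomatidine. It encodes a copy of Rpl7, a large subunit protein needed for maturing the large ribosomal RNA, and it gave 1819, 1969 and 1696 with tomatidine, against 1488, 1425 and 1479 in control. The groups did not overlap, and the log2 fold change was 0.32 ± 0.0739, or 24.7% higher (limma, adjusted p = 0.0327). The adjusted p was 0.0527 with day as a block, and the call was lost when any array other than tomatidine 3 was left out. A dimmer probe set of RPL7B gave 0.28 and was not called (limma, adjusted p = 0.283). The mean of its probe sets gave 0.30 and was not called either (limma, adjusted p = 0.0875).

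The other members with tomatidine did not pass the test, among them RPL22B, RPL5 and RPS15. RPL22B gave 646, 663 and 605 with tomatidine, against 559, 573 and 519 in control (0.21 ± 0.0804, limma, adjusted p = 0.2), and all 3 tomatidine arrays lay above control. RPL5, whose protein binds the smallest ribosomal RNA, gave 7824, 5985 and 7859 with tomatidine, against 8423, 8597 and 8240 in control (-0.23 ± 0.0949, limma, adjusted p = 0.238). All 3 tomatidine arrays lay below control, with tomatidine 2 farthest off. RPS15, of the head of the small subunit, had the same low array, with 6123, 4696 and 6125 against 6242, 6276 and 6118 in control, and its groups overlapped (-0.15 ± 0.0938, limma, adjusted p = 0.475).

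The large and small subunit genes had like medians with each compound. With tomatidine the median was 0.03 for the 42 large subunit genes and 0.04 for the 33 small subunit genes. With tomatine it was 0.09 in both, and with fenpropimorph -0.11 in both. The difference between subunits was 0.05, -0.02 and -0.02 on days 1 to 3 with tomatidine, -0.02, 0.01 and 0.01 with tomatine, and 0.01, -0.01 and -0.01 with fenpropimorph. It took both signs over the days for every compound. Fenpropimorph called 5 of 42 large and 6 of 33 small subunit genes lower, or 11.9% and 18.2%, against 16.9% of all probe sets. The difference between the subunit shares was not tested.

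Paralogues could be compared within an array for 29 proteins, 16 of the large and 13 of the small subunit. In 12 of these 29 pairs both probe sets had a plain name, without a suffix such as i or f. Probe sets of near-identical paralogues can also read the other copy, and how far they did was not tested. The log2 difference of the A and the B gene was formed on each array, and its change from control shows whether a pair moved apart. Such a change exceeded 0.2 in size for 2 pairs with tomatidine, 2 with tomatine and 5 with fenpropimorph. With 3 arrays against 3 the exact two-sided permutation test cannot go below p = 0.1. The pairs named below are those that changed most. Rps22 was named in addition, after its values were seen. All these changes are descriptions. Pairs picked by the size of their change tend to lie apart from control, so a lack of overlap in them is no further evidence of a split.

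Rps26 had the largest A minus B change measured with fenpropimorph. The A minus B difference was 4.26, 4.38 and 4.47 with fenpropimorph, against 4.14, 3.91 and 3.87 in control, a change of 0.40 with no overlap. RPS26A itself gave 19378, 18471 and 18700, against 19946, 19790 and 19801 in control (-0.07 ± 0.0548, limma, adjusted p = 0.34), near the top of the signal range of 1.84 to 21252. The mean signal of RPS26A, 19730, was close to the highest mean of any probe set, 20102. Whether its probe set was saturated was not tested, so the fall of RPS26B was measured and a fall of RPS26A could be understated.

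Rps27 split the other way. Its A minus B difference was -1.78, -1.36 and -1.33 with fenpropimorph, against -1.08, -1.08 and -1.18 in control, a change of -0.38 with no overlap. RPS27B gave 5980, 6150 and 6258, against 6359, 6235 and 6700 in control (-0.07 ± 0.0664, limma, adjusted p = 0.477), while RPS27A fell. For Rps28 the difference was -0.28, -0.36 and -0.25 with fenpropimorph, against -0.57, -0.63 and -0.61 in control, a change of 0.31, with the fall in the B gene. The copy that fell was thus B for Rps26 and Rps28 and A for Rps27. The probe set names of RPS26A and RPS28B carry the suffix i, and that of RPS28A the suffix f. Those of RPS26B, RPS27A and RPS27B are plain.

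Rpl15 had its largest differences with the tomato steroids. Its A minus B difference was 1.96, 2.30 and 2.08 with tomatidine and 2.33, 2.41 and 2.26 with tomatine, against 1.87, 1.68 and 1.90 in control. Both steroid groups lay above control without overlap, by 0.30 and 0.52. With fenpropimorph it was 1.73, 1.49 and 1.55, a change of -0.23 with overlap. These 3 comparisons share the control arrays.

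With tomatidine the next largest split was that of Rpl7, with 2.38, 2.30 and 2.49 against 2.60, 2.62 and 2.68 in control, a change of -0.24 without overlap. With tomatine it was that of Rps14, with 0.38, 0.58 and 0.51 against 0.62, 0.68 and 0.79 in control, a change of -0.21 without overlap. In both pairs the B gene was the one that rose. Both Rpl7 probe set names carry the suffix i and that of RPS22B the suffix f, and those of Rps14 and Rpl15 are plain. Rps22 lay below control without overlap for all 3 compounds, by -0.17 with tomatidine, -0.13 with tomatine and -0.15 with fenpropimorph, and these comparisons again share the controls.

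**Figure D4:**
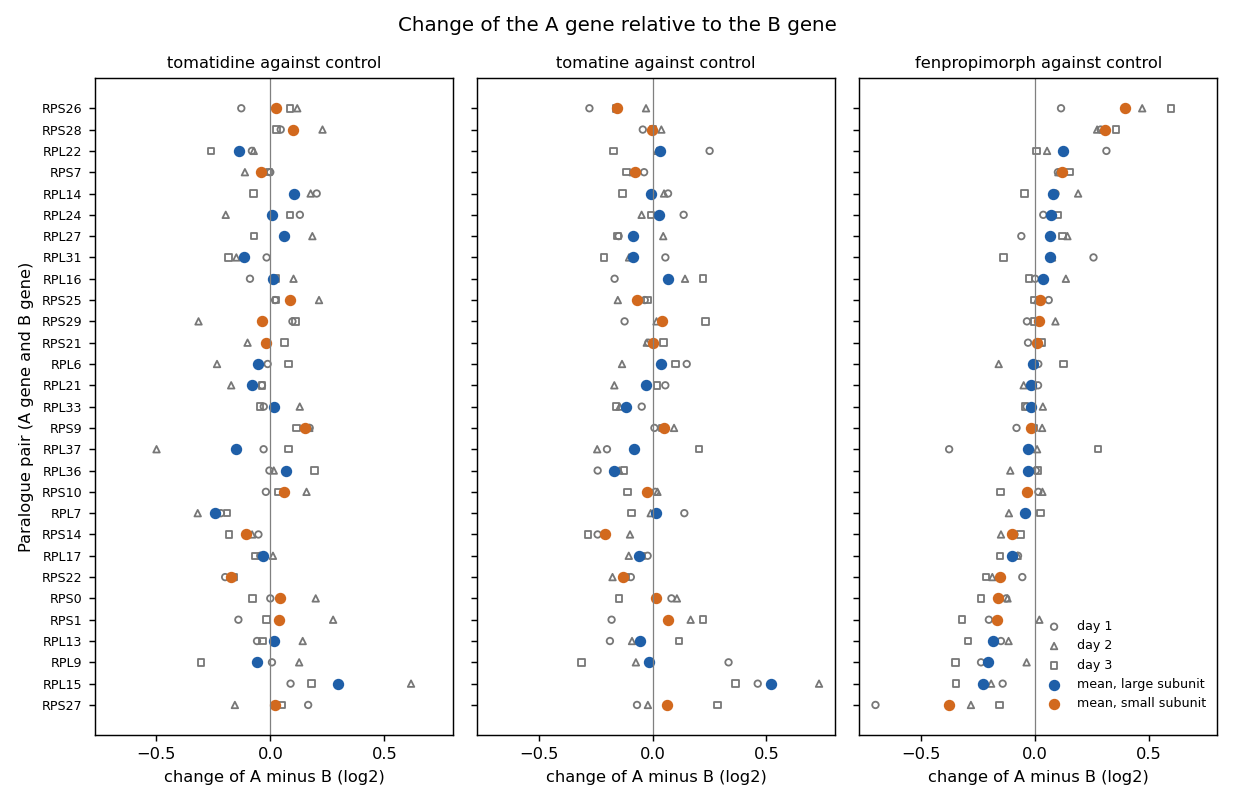
Change from control of the log2 difference between the A and the B gene (x axis) for 29 pairs of ribosomal protein genes (y axis, ordered by fenpropimorph). Open symbols are the 3 days, and filled points are means, blue for the large and orange for the small subunit. Most means lie near 0, and the means farthest out are RPL15 with tomatine and RPS26, RPS27 and RPS28 with fenpropimorph.

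Probe sets of a gene did not always give the same answer. Of the 20 members with several probe sets, calls differed within a gene for 2 with tomatidine, 1 with tomatine and 2 with fenpropimorph. The 2 with tomatidine were RPL7B, described above, and RPS22B. RPS22B was not called by its brightest probe set, at 0.19 with tomatidine (limma, adjusted p = 0.123) and 0.22 with tomatine (limma, adjusted p = 0.0611). A dimmer probe set of RPS22B was called, at 0.37 with tomatidine (limma, adjusted p = 0.00788) and 0.27 with tomatine (limma, adjusted p = 0.0456). RPL7A had the largest gap between probe sets, and with fenpropimorph its brightest gave -0.16 (limma, adjusted p = 0.0506), a second gave -0.24 (limma, adjusted p = 0.0227) and the dimmest gave -0.46 (limma, adjusted p = 0.0246). That dimmest probe set had a mean log2 signal of 5.27, below the median of 6.29 over all probe sets, whereas the brightest had 13.15. Its value is therefore not read as a change of the RPL7A transcript. The brightest probe set of RPL17B gave -0.06 with fenpropimorph, and another gave -0.20 (limma, adjusted p = 0.0477).

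Many paralogues have nearly the same sequence, so the signal of 1 copy can include the other. The names of 30 of the 75 member probe sets carry a suffix such as i or f, and 45 are plain. With fenpropimorph 7 of the 45 and 4 of the 30 were called lower, or 15.6% and 13.3%, against 16.9% of all probe sets. The medians of these 45 and 30 were -0.10 and -0.12. The brightest of the probe sets that name both paralogues was taken for each of 37 proteins, 27 of which have no member. With tomatidine 1 of these rose, the probe set of RPS9A and RPS9B (0.27 ± 0.0669, limma, adjusted p = 0.0428), against 2.53% of all probe sets called higher. The separate member probe sets gave 0.11 for RPS9A and -0.04 for RPS9B with tomatidine, and neither was called. With tomatine, where 2.59% of all probe sets were called higher, and with fenpropimorph 0 of these 37 probe sets were called (limma). Their medians were 0.04, 0.08 and -0.07 with tomatidine, tomatine and fenpropimorph, against 0.04, 0.09 and -0.11 for the members and -0.02, -0.01 and -0.07 over all probe sets. With fenpropimorph the shared probe sets had the same median as all probe sets to 2 decimals, and 0 of 37 called compares with 16.9% of all probe sets called lower.

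The treated cultures were also set against each other. The doses differed, so these comparisons are of the cultures and not of the compounds at a matched dose. In the fenpropimorph cultures 43 of the 75 members were lower and 1 higher than in the tomatine cultures, whereas 22.5% of all probe sets were called lower and 15.9% higher (limma). The median of the members was -0.20 and that of all probe sets -0.05. The lower ones were 24 of 42 large and 19 of 33 small subunit genes. RPS26B had the lowest value (-0.64 ± 0.0958, adjusted p = 0.00023), followed by RPS28B (-0.55 ± 0.0786, adjusted p = 0.000154, both limma). The member that was higher was RPL15B, with 847, 889 and 940 with fenpropimorph, against 727, 614 and 732 with tomatine (0.37 ± 0.0951, limma, adjusted p = 0.00837). Leaving out 1 of the 6 arrays gave 29 to 39 lower genes.

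Against the tomatidine cultures, 24 of the 75 members were lower with fenpropimorph and 0 higher, whereas 17% of all probe sets were called lower and 13.5% higher (limma). RPS27A had the lowest value (-0.55 ± 0.115, adjusted p = 0.00334), followed by RPL22B (-0.52 ± 0.0804, adjusted p = 0.000441, both limma). The count was 15 without tomatidine 1 and also 15 without fenpropimorph 2.

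Tomatine differs from tomatidine by its sugars, and the cultures also differed in dose, at 13.9 and 0.625 ppm. Between them 0 of the 75 members were called, whereas 5.09% of all probe sets were (limma; 14 members at an unadjusted p under 0.05). The differences, tomatine minus tomatidine, were -0.23 for RPL7B at the lowest (95% interval -0.39 to -0.07) and 0.28 for RPL5 at the highest (95% interval 0.07 to 0.49). RPL36B was called with day as a block (0.26, limma, adjusted p = 0.0418). The F test over the 4 groups called 29 of the 75 members, or 38.7%, against 37.2% of all probe sets.

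The other parts of the translation machinery are given for comparison, from lists that were chosen with earlier results of these data known. The ribosomal stalk proteins, which recruit translation factors, and Asc1, a scaffold protein on the small subunit, were not called with any compound (limma, 0 of 6 genes also at an unadjusted p under 0.05). Their medians were -0.01 with tomatidine, 0.06 with tomatine and -0.07 with fenpropimorph. RPP0 gave -0.01, 0.04 and -0.02 with tomatidine, tomatine and fenpropimorph, and RPP1B had the lowest fenpropimorph value of the list at -0.13. RPP1A, RPP2A, RPP2B and ASC1 lay between -0.09 and -0.04 with fenpropimorph.

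Of 12 regulators of ribosomal protein genes, 2 were called higher and 4 lower with fenpropimorph, against 13.4% and 16.9% of all probe sets. The signals of FHL1 (25.8 to 37.7) and CRF1 (6.43 to 11.4) lay on all 12 arrays within the range of the a-specific genes, which this strain does not use, so their calls are given as values and not read as changes of the transcripts. RAP1, the general activator that opens these promoters, fell by 0.28 on the log2 scale (limma, adjusted p = 0.0138). Its signals on fenpropimorph 1 and 2, 109.8 and 99.7, lay within the range of the a-specific genes, and its other signals lay above it. FHL1, whose protein sits on the promoters and recruits Ifh1, had -0.30 (limma, adjusted p = 0.0216), and HMO1, a high mobility group protein found there, fell by 0.22 (limma, adjusted p = 0.0228). DOT6, a repressor of ribosome biogenesis genes, fell by 0.28 (limma, adjusted p = 0.0252). YAK1, a kinase that acts on Crf1, rose (0.44, limma, adjusted p = 0.0106), and CRF1, whose protein competes with Ifh1 for Fhl1, had 0.49 (limma, adjusted p = 0.0201).

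IFH1, the coactivator, had -0.20 with fenpropimorph (limma, adjusted p = 0.197), and SFP1, an activator that responds to nutrients, had 0.14 (limma, adjusted p = 0.104). All 6 calls were lost without fenpropimorph 2. With tomatine 2 of the 12 rose, against 2.59% of all probe sets called higher. They were SFP1 (0.24, limma, adjusted p = 0.0432) and TOD6, a paralogue of DOT6 (0.69, limma, adjusted p = 0.0182). In 4 of the 6 ways of leaving out an array neither was called: without tomatine 2, tomatine 3, control 1 or control 2. IFH1 had 0.36 with tomatine (limma, adjusted p = 0.0938). With tomatidine 0 of the 12 were called (limma, 1 at an unadjusted p under 0.05), against 2.53% of all probe sets called higher and 1.91% lower.

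Chaperones escort single ribosomal proteins to the nascent subunits, and late assembly factors act on subunits that are nearly complete. Of the 21 such genes, 10 fell and 0 rose with fenpropimorph, with a median of -0.27, against 16.9% of all probe sets called lower and 13.4% called higher. The lowest were SDO1 (-0.50, limma, adjusted p = 0.000919), which releases a factor from the nearly finished large subunit, and REI1 (-0.47, limma, adjusted p = 0.0147), a late cytoplasmic factor of that subunit. TSR2, the chaperone of Rps26, had -0.27 (limma, adjusted p = 0.0135). With tomatine 11 rose and 0 fell, with a median of 0.34, against 2.59% of all probe sets called higher and 1.77% called lower. The highest of these were LTV1, a factor of the small subunit (0.53, limma, adjusted p = 0.0129), ARX1, an export factor of the large subunit (0.51, limma, adjusted p = 0.027), and ACL4, the chaperone of Rpl4 (0.45, limma, adjusted p = 0.0182). TSR2 and ACL4 gave signals within the range of the a-specific genes, with 49.1 to 87.9 for TSR2 and no more than 88.0 for ACL4 over the 12 arrays. Their calls, which the counts include, are thus given as values and not read as changes of the transcripts. SDO1 lay within that range on the fenpropimorph arrays alone, at 72.9, 84.1 and 88.5. BCP1, among the genes that fell, lay within it on fenpropimorph 1 and 2, at 106.7 and 104.3.

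With tomatidine LTV1 alone of the 21 rose (0.41, limma, adjusted p = 0.03), against 2.53% of all probe sets called higher. The median of the 21 was 0.21, and the call of LTV1 was lost when any array other than control 3 was left out. The tomatine count of 11 depended on every array: it was 1 without control 1 and without control 2, 2 without tomatine 3, 6 without tomatine 2, and 7 without tomatine 1 and without control 3. The fenpropimorph count of 10 was 6 without fenpropimorph 2 and 6 without control 3, and 12 without control 2 and without fenpropimorph 3.

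Of the translation initiation factors, 18 of 20 had a probe set of their own. With fenpropimorph 7 fell and 0 rose, against 16.9% and 13.4% of all probe sets, led by TIF35 (-0.40, limma, adjusted p = 0.00101) and RPG1 (-0.33, limma, adjusted p = 0.00596), both subunits of initiation factor eIF3, and the count was 4 without fenpropimorph 2. With tomatine 3 rose, against 2.59% of all probe sets called higher, TIF4631 (0.32, limma, adjusted p = 0.0448), PRT1 (0.30, limma, adjusted p = 0.0247) and TIF5 (0.30, limma, adjusted p = 0.033), and leaving out any array other than tomatine 2 left 0 called. With tomatidine 0 were called (limma, 1 at an unadjusted p under 0.05), against 2.53% of all probe sets called higher and 1.91% lower.

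Of the 9 elongation and termination factors measured alone, ANB1 stood apart. ANB1 encodes the form of eIF5A that yeast makes when oxygen or heme is short. It rose with tomatidine (1.45, limma, adjusted p = 0.000166) and with fenpropimorph (1.87, limma, adjusted p = 2.03e-06), and had 0.27 with tomatine (limma, adjusted p = 0.375). HYP2, the aerobic form, had -0.22 with tomatidine (limma, adjusted p = 0.147) and -0.16 with fenpropimorph (limma, adjusted p = 0.135). SUP45, a release factor, fell by 0.25 with fenpropimorph (limma, adjusted p = 0.0388, and 0.0507 with day as a block), and that call was lost whichever of the 6 arrays was left out.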

How the data were processed

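RNA of 12 cultures (4 groups, 3 days) was measured on Affymetrix arrays. The authors made probe set intensities with RMA, per the submitters' processing notes; the version and settings are not given in the sources used here. The deposited intensities were on a linear scale (1.84 to 21252), and log2 of each was taken here. Tests ran on 9275 probe sets, without the 60 of the array's own controls. Gene names came from the platform annotation, in which 6504 probe sets name 1 gene, 328 several and 2443 none. All 75 member symbols matched the reference gene table (assembly R64), and 0 needed updating.

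Group means of the 12 arrays were estimated together with limma 3.58.1 under R 4.3.3 (prior degrees of freedom 3.65, residual 8), with two-sided tests and Benjamini-Hochberg adjustment over the 9275 probe sets. Groups came from the sample titles. The members and lists were chosen with earlier results of these data known. The genes named were the 6 highest and 6 lowest members for each compound, the paralogue pairs that changed most, and set ranks and regulators of each list. Genes named beside these were chosen after their values were seen: RPL13A, RPL22A, RPL36A, RPL14B and RPS7B as called genes, and RPL7A, RPL17B, RPS9A, RPS9B, HYP2, DOT6, TSR2, RPG1 and SUP45. The pair of Rps22 was also chosen after its values were seen.

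Days are stated in the titles and pair the samples; deviations of arrays of the same day correlated at 0.0351 on average (18 pairs, -0.203 to 0.236), and 0 probe sets differed between days (limma, 579 at an unadjusted p under 0.05). Nothing beyond the day says how separate the cultures were, so p-values measure the spread between these arrays. The fit was tested on simulated data with known changes in fenpropimorph, 50 probe sets at each size. It recovered 20% of 1.25-fold, 76% of 1.5-fold and 100% of 2-fold and 4-fold changes, with 5 false calls among 153. Changes of the size seen in most members would thus often be missed. Alternatives were quantile normalization, a day block, a trended robust prior, median centring and averaging a gene's probe sets. Others were only bright probe sets, no suffixed probe sets, 16 added before the log, only the 2 groups compared, and leaving out each array. Figures used matplotlib 3.10.9 in Python 3.11.15.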

Additional observations from a re-analysis of the deposited data

How the results depend on the processing

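The median log2 fold change of the ribosomal protein genes kept its sign under every alternative run, at 0.02 to 0.05 with tomatidine, 0.07 to 0.11 with tomatine and -0.12 to -0.09 with fenpropimorph. The counts of calls did not hold as well. The 11 genes lower with fenpropimorph were 19 with a trended prior, 18 with 16 added before the log and 16 with only bright probe sets. They were 12 with quantile normalization and with probe sets averaged by gene. The count was 8 with the day block, with median centring, without suffixed probe sets and with only the 2 groups fitted, and 7 to 11 without 1 array (7 without control 1). Apart from the day block, the share of all probe sets called under these alternatives is not given here. The 1 gene higher with tomatidine was 0 with the day block, with quantile normalization and with only the 2 groups fitted, 2 with the trended prior, with only bright probe sets and with 16 added, and 0 to 1 without 1 array. The 1 gene higher with tomatine was 0 with quantile normalization and with only the 2 groups fitted. It was 2 with median centring, without suffixed probe sets and with probe sets averaged by gene. It was 4 with the trended prior, with only bright probe sets and with 16 added, and 0 to 2 without 1 array. The 0 genes lower with tomatine were 1 with the trended prior, with only bright probe sets, without suffixed probe sets and with 16 added. The large minus small subunit difference was 0.0224 with fenpropimorph over the 47 members that kept a value without suffixed probe sets. Without 1 array it was -0.0126 to 0.0046 with fenpropimorph, -0.0147 to 0.00898 with tomatine and -0.0248 to 0.0194 with tomatidine, and with tomatidine it was 0.0099 with quantile normalization, against -0.0105 without it. The cause of these moves was not tested. The day block moved no other count of members against control by over 1.5 times.

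Signs turned for single genes near 0 that were not called. With tomatidine these were RPL21B (-0.0394 with quantile normalization), RPL7A (-0.293 without suffixed probe sets, -0.0864 averaged) and RPS10B (-0.173 to 0.00295 without 1 array). Without suffixed probe sets RPL7A was read by its dimmest probe set. With tomatine they were RPL21B (-0.0197) and RPS2 (-0.0402) with quantile normalization, RPL17A (0.0142) and RPL37A (0.0133) with median centring, and RPL17A (0.0334) averaged. Without 1 array, tomatine values ranged from -0.032 to 0.0219 for RPL37A, -0.0199 to 0.0364 for RPS2, -0.0204 to 0.0215 for RPL17A, -0.123 to 0.0603 for RPS20 and -0.0126 to 0.0307 for RPS26A. Fenpropimorph values ranged from -0.0301 to 0.0339 for RPS14B, -0.00879 to 0.0659 for RPL15B, -0.0400 to 0.091 for RPL39 and -0.00331 to 0.0598 for RPS22B. With fenpropimorph RPL15B was -0.00432 with quantile normalization and RPS14B 0.00872 with median centring. Precision was limited by the 3 arrays per group, and standard errors of the members with fenpropimorph ranged from 0.0548 (RPS26A) to 0.12 (RPL9A) on the log2 scale.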
